A study of Arabidopsis thaliana with 3 samples.

Results

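The annotated pseudogenes of the 5 Arabidopsis thaliana chromosomes, a class of the TAIR10.1 annotation that includes transposon-derived genes, were described in whole-genome bisulfite sequencing of leaves with reduced histone H3.3. A pseudogene was kept when its annotation biotype was pseudogene and when it had at least 100 CG calls in every library, which left 3726 of 3917 pseudogenes, and the other 191 included 92 with no CG call in at least 1 library. They made up 3726 of the 36290 annotated genes of any biotype that met the same minimum, and covered 9.1 Mb. The pseudogene just inside the minimum, AT5G36060, had 102 CG calls in its shallowest library, and the one just outside it, AT3G45360, had 99. The series held 3 libraries from mature leaves of the Col-0 ecotype. There were 2 libraries of h3.3 kd plants (replicates 1 and 2) and 1 of the wild type (WT). The h3.3 kd plants carried the T-DNA insertions htr4-2 and htr8-2 together with amiR-HTR5-II, an artificial microRNA against HTR5, transcribed from the HTR5 promoter, so that H3.3 was lowered and not removed. The transgenes were put into descendants of a parent that carried these insertions, so that mutant and WT plants also had separate parentage. The methods name the lines h3.3kd-2 and h3.3kd-3 as the source of the leaves, taken from plants on soil after a shift out of short days into long days. The labels do not tie a line to a replicate, and neither they nor the methods give how many plants went into a library.

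H3.3 is the histone H3 variant that is placed into chromatin outside of DNA replication, mostly over transcribed genes, whereas silent transposons are packed with H3.1. Plant DNA is methylated in 3 sequence contexts, in which H stands for A, C or T. CG methylation is copied by MET1 after replication, CHG methylation is written mainly by CMT3 in a loop with H3K9 methylation, and CHH methylation is written by CMT2 in pericentromeric heterochromatin and by the RNA-directed DNA methylation pathway at short elements and element edges, many of them on chromosome arms. Silent transposons and their remains carry all 3, and transcribed genes often carry CG methylation alone.

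Stretches of 150 bp from 6 pseudogenes show what was measured. Each is the stretch of its pseudogene with the most CG dyads that had at least 4 calls on both strands in every library, on the strand of the pseudogene, with each CG dyad in capitals. The tie between equal stretches went to the first. The first pair, chr4:5987867-5988016 in AT4G09455 and chr1:12030588-12030737 in AT1G33180, comes from the pseudogenes that ranked first among those that fell in CG in h3.3 kd. The second pair, chr3:8138543-8138692 in AT3G22955 and the reverse complement of chr5:24019242-24019391 in AT5G59620, comes from those that ranked first among the rises. The third pair, the reverse complement of chr4:1316541-1316690 in RE2 (AT4G02960, a copia-type retrotransposon) and chr5:10079990-10080139 in AT5G28065 (a CACTA-like transposase), comes from the longest pseudogenes with a named transposon family (sequences and coordinates from the RefSeq TAIR10.1 assembly).
AT4G09455: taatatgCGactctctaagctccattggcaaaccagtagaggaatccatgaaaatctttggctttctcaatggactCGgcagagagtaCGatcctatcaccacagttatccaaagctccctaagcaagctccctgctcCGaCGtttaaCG
AT1G33180: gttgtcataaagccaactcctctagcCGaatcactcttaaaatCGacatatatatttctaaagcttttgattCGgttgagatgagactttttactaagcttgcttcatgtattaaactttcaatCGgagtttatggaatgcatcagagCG
AT3G22955: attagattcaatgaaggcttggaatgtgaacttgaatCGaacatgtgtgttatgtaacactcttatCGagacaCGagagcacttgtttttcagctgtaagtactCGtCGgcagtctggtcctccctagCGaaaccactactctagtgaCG
AT5G59620: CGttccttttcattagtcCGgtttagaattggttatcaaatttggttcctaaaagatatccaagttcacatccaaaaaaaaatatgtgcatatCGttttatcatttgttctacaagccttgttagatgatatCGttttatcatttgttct
RE2: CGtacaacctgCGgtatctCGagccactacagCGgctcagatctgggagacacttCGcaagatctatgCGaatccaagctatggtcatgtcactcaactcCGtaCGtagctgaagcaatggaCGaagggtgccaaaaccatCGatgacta
AT5G28065: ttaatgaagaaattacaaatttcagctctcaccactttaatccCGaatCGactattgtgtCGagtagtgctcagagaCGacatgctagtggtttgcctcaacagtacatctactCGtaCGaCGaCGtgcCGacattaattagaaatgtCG

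In the AT4G09455 stretch, 5.67% and 0.99% of CG calls were methylated in h3.3 kd replicates 1 and 2 (141 and 101 calls), against 93.6% in WT (109 calls). The 4 of its 6 dyads with enough calls ranged over 0 to 18.4% in replicate 1 and 0 to 3.70% in replicate 2. In WT they ranged over 84.4 to 100%, without overlap between the h3.3 kd libraries and WT. Such separation follows from the choice of this pseudogene by its CG difference in these libraries, and dyads of 1 locus are not replicates. The AT1G33180 stretch had 16.7% and 20.8% in h3.3 kd and 48.5% in WT, and there the dyads did overlap, at 0 to 40% and 0 to 41.7% in h3.3 kd and 2.50 to 83.3% in WT. The AT3G22955 stretch had 67.9% and 82.8% in h3.3 kd against 2.58% in WT, and the 5 of its 7 dyads with enough calls lay at 56.7 to 76.9% and 70.6 to 90.9% in h3.3 kd against 0 to 13.6% in WT. The AT5G59620 stretch had 85.6% and 89.8% in h3.3 kd against 9.14% in WT. Its 4 dyads did not overlap between the h3.3 kd libraries and WT either, and it too was chosen by its CG difference. The stretch in RE2 was almost unmethylated in every library, with 0.712% and 0 in h3.3 kd and 1.24% in WT, where the 0 of 277 calls in replicate 2 allows a level of up to 1.08%. The AT5G28065 stretch was methylated throughout, at 95.7% and 94.2% in h3.3 kd and 92.1% in WT.

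The annotation gives little on what these pseudogenes are. A note was attached to 50 of the 3726, a transposon word stood in 29 of the notes, and 27 had a symbol of their own, of which 16 were Sadhu elements and 6 belonged to the MUG family (genes derived from mutator-like transposases). The annotation therefore names few of them as transposon genes. The median pseudogene was 2086 bp long (71 to 15195 bp), had 41.3% G and C and 26.1 CG dyads per kb, and lay 5.68 kb from the nearest protein-coding gene. Only 58 overlapped a protein-coding gene and 25 overlapped another pseudogene. In the median pseudogene, 6.70% of the sequence lay in stretches of 50 bp that occur more than once in the genome, and over all of them 82% of CG cytosines had a call in every library. The pericentromere was set for each chromosome as the longest run of 100-kb bins with a low density of protein-coding genes (a smoothed share under 0.35), which took 3.2 to 5.5 Mb of each chromosome. It held 2841 of the pseudogenes (76.2%), against 5.72% of protein-coding genes, and the arms held 885.

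Each library held 822515332 to 842326850 calls over the 5 chromosomes, a mean of 19.2 to 19.7 calls per cytosine. A call is 1 sequenced base that read as C (methylated) or T (unmethylated) at a genomic cytosine, and a methylation level is C over C plus T. The pseudogenes received 6764822 and 6610665 CG calls in the h3.3 kd libraries and 7003370 in WT, so that counting error of a pooled level was small. The 95% Wilson interval of the CG level over all pseudogenes was 80.24 to 80.30% and 79.93 to 79.99% in h3.3 kd and 81.94 to 82.0004% in WT. Counting intervals do not cover the spread between plants, and calls at several cytosines of the same read are not independent. WT had no replicate, so that the only replicate error is the gap between the h3.3 kd libraries, and an exact two-sided permutation of 2 libraries against 1 cannot give a p-value below 0.333.

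CG methylation of the pseudogenes was slightly lower in h3.3 kd and CHG methylation slightly higher. The pooled CG level was 80.27% and 79.96% in h3.3 kd (80.1% ± 0.217, SD, n = 2) against 81.97% in WT (n = 1), a difference of -1.86 percentage points. The pooled CHG level was 41.18% and 40.86% in h3.3 kd against 40.31% in WT, a difference of 0.70 ± 0.227 points. The CHH level was 8.70% and 8.50% in h3.3 kd and 8.61% in WT, and that difference of -0.01 points was smaller than the SD of 0.148 between the h3.3 kd libraries. The CG and CHG differences were larger than the gap between the h3.3 kd libraries (exact permutation p = 0.333, the smallest possible, for each), and the CHH value was not.

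The size of the pooled CG difference depended on which pseudogenes gave the reads. Pseudogenes with a CHG level under 5% gave 8.05% and 8.22% of the class's CG calls in h3.3 kd and 7.10% in WT. With every pseudogene weighted by its WT calls the CG difference was -0.98 points, as a mean over cytosines it was -0.996, and with equal weight for each pseudogene it was -0.90. Per pseudogene, the median CG difference was -0.89 points (interquartile range -1.99 to 0.16), and 2072 pseudogenes were lower in both h3.3 kd libraries, 642 were higher in both and 1012 were mixed. Both h3.3 kd libraries are set against the same WT library. With 3 alike libraries, a share near 0.333 would be lower in both and as large a share higher in both. The median pseudogene was 1.28 points higher in CHG (-0.43 to 3.36), with 2092 of 3691 tested higher in both h3.3 kd libraries and 841 lower in both.

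The pseudogenes fell into a densely methylated majority and a small group with little non-CG methylation. A CHG level of at least 20%, pooled over the 3 libraries, was found for 3337 pseudogenes, which are called CHG-methylated here, 112 had 5 to 20% and 277 had less than 5%. The pooled level holds both h3.3 kd libraries, so these classes rest partly on the values that are compared. AT3G22955, at 0.259% CHG in WT, entered the CHG-methylated class through h3.3 kd, while AT3G52705, at 32.0% in WT, fell below it. CHG-methylated pseudogenes had 86.90% and 86.78% CG in h3.3 kd and 87.88% in WT. Those of 5 to 20% CHG had 65.81% and 64.86% CG in h3.3 kd and 67.45% in WT. Those under 5% CHG had 9.86% and 9.4996% CG in h3.3 kd and 10.61% in WT, and their CHH level of 0.600% and 0.588% in h3.3 kd and 0.599% in WT lay under 1% in every library. The pooled CG level was therefore lower in h3.3 kd in each class, by 0.93 to 2.11 points, and in the 3337 CHG-methylated pseudogenes by 1.04 points. Per pseudogene, the median CG difference was -0.98 points in the CHG-methylated class, -0.87 points at 5 to 20% CHG and 0.0025 points under 5% CHG, so that the pooled difference of the last class was not that of its median pseudogene. A CG level of at least 60% was found for 3400 and 3395 pseudogenes in h3.3 kd replicates 1 and 2 and for 3400 in WT, and one under 10% for 194 and 197 in h3.3 kd and for 195 in WT.

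The non-CG difference had opposite signs on chromosome arms and in the pericentromere. Among CHG-methylated pseudogenes of the arms (n = 649), the CHG level was 49.59% and 49.78% in h3.3 kd against 50.77% in WT, a difference of -1.09 ± 0.135 points. Among the 2688 of the pericentromere it was 43.76% and 43.39% in h3.3 kd against 41.74% in WT, a difference of 1.83 ± 0.257 points. CHH followed the same split. In the arms it was 11.14% and 10.98% in h3.3 kd against 11.94% in WT (-0.88 points), and in the pericentromere it was 9.10% and 8.88% against 8.71% (0.28 ± 0.155 points, exact permutation p = 0.667). CG was lower in h3.3 kd in both places, at 85.83% and 85.55% against 87.03% in the arms and 87.15% and 87.06% against 88.07% in the pericentromere.

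Set against each other, arm pseudogenes carried 5.83 and 6.38 points more CHG methylation than pericentromeric ones in h3.3 kd, against 9.02 points more in WT. This contrast within each library changed by -2.92 points, where the h3.3 kd libraries differed by 0.55 points (exact permutation p = 0.333, the smallest possible). The same contrast for CHH was 2.04 and 2.10 points in h3.3 kd and 3.23 points in WT. Per pseudogene, 1748 of 2670 tested in the pericentromere were higher in CHG in both h3.3 kd libraries (65.5%) and 404 were lower in both, whereas in the arms 207 of 643 were higher in both (32.2%) and 303 were lower in both. The medians of these pseudogenes differed by 1.94 points (interquartile range 0.17 to 3.82) in the pericentromere and by -0.78 points (-3.33 to 1.51) in the arms. With all pseudogenes and no CHG minimum, the pooled CHG difference was -2.09 points in the arms and 1.57 in the pericentromere, and the arm value came to -0.89 points with equal weight for each pseudogene.

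**Figure D1:**
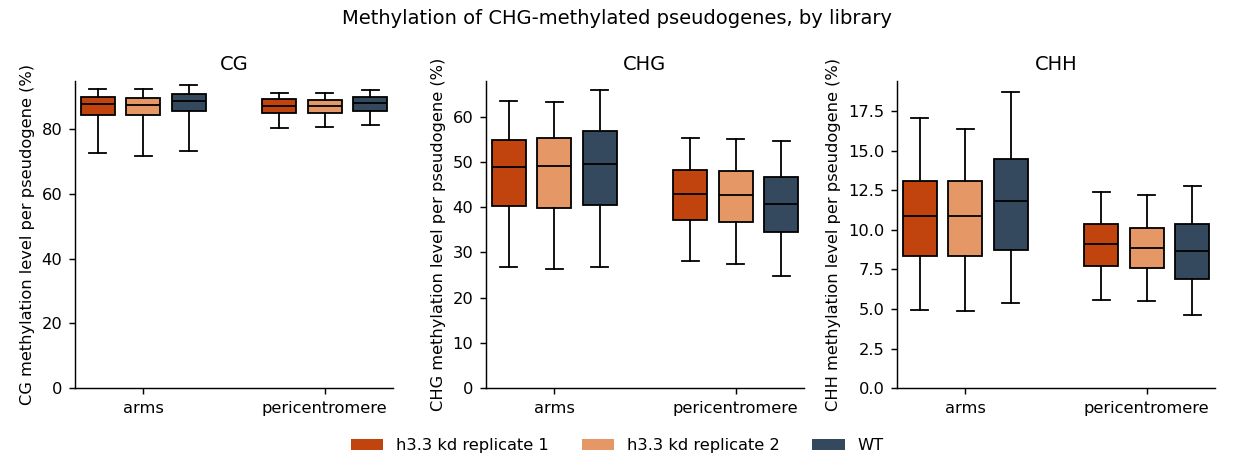
Methylation level of each CHG-methylated pseudogene in CG, CHG and CHH (%), for h3.3 kd replicate 1, h3.3 kd replicate 2 and WT, in chromosome arms (n = 649) and in the pericentromere (n = 2688). Boxes span the quartiles with the median as a line, and whiskers reach from the 5th to the 95th percentile. The CHG median was higher in h3.3 kd (42.9% and 42.6%) than in WT (40.6%) in the pericentromere and lower in the arms (48.8% and 49.0% against 49.6%).

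The difference followed distance along the chromosome. Within 1 Mb of the middle of the pericentromere, 1409 CHG-methylated pseudogenes had 43.3% and 42.9% CHG in h3.3 kd against 40.6% in WT, a difference of 2.53 points. From 1 to 2 Mb (n = 1071) the difference was 1.35 points, and from 2 to 3 Mb (n = 475) it was -0.01. From 3 to 5 Mb (n = 166) it was -1.42, and beyond 5 Mb (n = 216) 52.58% and 52.95% in h3.3 kd stood against 55.1% in WT, a difference of -2.33. Each of these values but the middle one was larger than the SD of 0.11 to 0.27 between the h3.3 kd libraries. CHH went from 0.52 points above WT in the innermost bin through 0.14, -0.41 and -1.16 to -1.42 points in the outermost bin. CG lay below WT in every bin, by 0.89 points in the innermost and 1.60 points in the outermost.

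**Figure D2:**
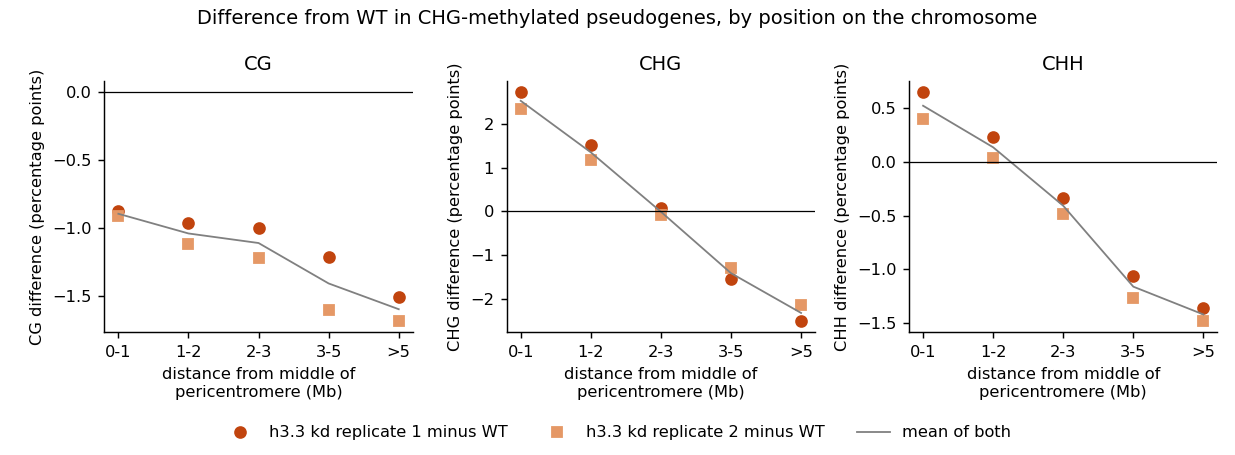
Difference from WT (percentage points) in pooled CG, CHG and CHH level of CHG-methylated pseudogenes, against distance from the middle of the pericentromere (Mb, 5 bins of 1409, 1071, 475, 166 and 216 pseudogenes). Circles and squares are h3.3 kd replicates 1 and 2 minus WT and the line is their mean. CHG passed from 2.53 points above WT to 2.33 below it, and CG was below WT in every bin.

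The CHG split was found at every length and, for the arms, on 4 of the 5 chromosomes. CHG in the pericentromere was higher in h3.3 kd on each of the 5 chromosomes, by 1.61 points on chromosome 1, 1.62 on chromosome 2, 1.68 on chromosome 3, 2.30 on chromosome 4 and 2.09 on chromosome 5. In the arms the difference was -1.81, -1.29, -1.73 and -1.29 points on chromosomes 1, 2, 3 and 5, whereas the 186 arm pseudogenes of chromosome 4 had 47.02% and 47.06% in h3.3 kd and 47.01% in WT. Their CHH level was 0.41 points lower in h3.3 kd, against 0.93 to 1.16 points lower in the arms of the other chromosomes. In the pericentromere CHH was 0.21 to 0.53 points higher on chromosomes 2 to 5, whereas on chromosome 1 it was 9.62% and 9.48% in h3.3 kd and 9.56% in WT, and the median pseudogene there differed by -0.06 points, with 165 lower in both h3.3 kd libraries and 142 higher in both. By length, the CHG difference in the pericentromere was 2.09 points under 1 kb (n = 621), 2.18 at 1 to 2 kb, 1.85 at 2 to 4 kb and 1.67 at 4 kb or more (n = 526). In the arms it was -1.65 under 1 kb (n = 165), -1.02 at 1 to 2 kb, -1.02 at 2 to 4 kb and -1.10 at 4 kb or more (n = 184). Among pseudogenes without any repeated stretch of 50 bp, the difference was 1.88 points in the pericentromere (n = 537) and -1.39 in the arms (n = 182).

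Arm pseudogenes were also the more heavily CHG-methylated ones in WT, and in both places the difference was lowest where the CHG level was highest. Bins of the pooled CHG level use the values that are compared, so these values are a description. In the pericentromere, pseudogenes of 20 to 30% CHG (n = 261) differed by 2.78 points, those of 30 to 40% by 2.74, those of 40 to 50% by 1.73, those of 50 to 60% by 0.27 and the 30 above 60% by -1.21. In the arms the same bins differed by -0.58, -0.09, -0.16, -1.27 and -2.85 points, on 54 to 230 pseudogenes each. In each of the 5 bins the pericentromeric value lay above the arm value.

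Sub-contexts differed in size but not in sign. In the pericentromere, CAG and CTG sites, the preferred sites of CMT3, had 46.3% and 46.1% in h3.3 kd against 44.2% in WT, and CCG sites had 30.9% and 30.1% against 29.6%. In the arms, CAG and CTG sites had 52.4% and 52.7% in h3.3 kd against 53.5% in WT, a change of -1.71% of the WT level, and CCG sites had 35.1% and 34.7% against 36.8%, a change of -5.28%. CAA and CTA sites, which CMT2 prefers, had 28.1% and 27.6% in h3.3 kd against 29.5% in WT in the arms (-5.74% of the WT level), and 23.1% and 22.6% against 22.0% in the pericentromere (3.76%). The remaining CHH sites had 5.02% and 4.96% against 5.39% in the arms, and 3.92% and 3.82% against 3.63% in the pericentromere. All 4 groups of sites had the same sign within a place, and in the pericentromere the CCG and the CAA and CTA differences of 0.88 ± 0.618 and 0.83 ± 0.414 points came with the widest gaps between the h3.3 kd libraries.

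The split was not found in pseudogenes alone. CHG-methylated protein-coding genes, by the same 20% minimum, had 36.6% and 35.99% CHG in h3.3 kd against 35.0% in WT in the pericentromere (n = 459, 1.32 points), and 39.5% and 39.1% against 41.9% in the arms (n = 529, -2.61 points). Their arm-minus-pericentromere contrast changed by -3.93 points, against -2.92 points for the pseudogenes, and the h3.3 kd libraries differed in it by 0.18 points. The difference between the pseudogenes and these genes was not tested. Sequencing depth moved with the methylation class. Relative to the total calls of each library, the median CHG-methylated pseudogene of the pericentromere had 0.99 and 0.94 times its WT depth in h3.3 kd, that of the arms 0.97 and 0.92 times, and the median pseudogene under 5% CHG 1.10 and 1.08 times. The part of depth in these differences was not tested.

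Methylation did not end at the annotated edges. Within 1 kb outside an edge, the CG level was 73.4% and 72.7% in h3.3 kd against 74.6% in WT, a difference of -1.50 points, and -0.85 points when cytosines inside any annotated gene were left out. The flanks of CHG-methylated arm pseudogenes had 59.7% and 58.6% CG in h3.3 kd against 62.1% in WT, and in their 100-bp bins the WT level ran between 41.9% and 82.5%. In the flanks of pericentromeric ones it was 83.7% and 83.3% in h3.3 kd against 84.2% in WT, close to the body. CHG in the flanks had the sign of the body. In the pericentromere it was 39.8% and 39.0% in h3.3 kd against 37.4% in WT, higher in all 40 bins of flank and body by 1.44 to 2.42 points. In the arms it was 30.5% and 29.9% in h3.3 kd against 32.1% in WT, lower in all 40 bins by 0.39 to 4.65 points. CHH was likewise higher in all 40 bins of the pericentromere and lower in all 40 bins of the arms, and CG was lower in all 40 bins of both. Bins of 1 pseudogene share reads and plants and are not replicates. The first 200 bp inside an edge of arm pseudogenes differed by -1.79 CHG points, the stretch from 200 bp to 1 kb by -1.55 and the flanks by -1.93.

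**Figure D3:**
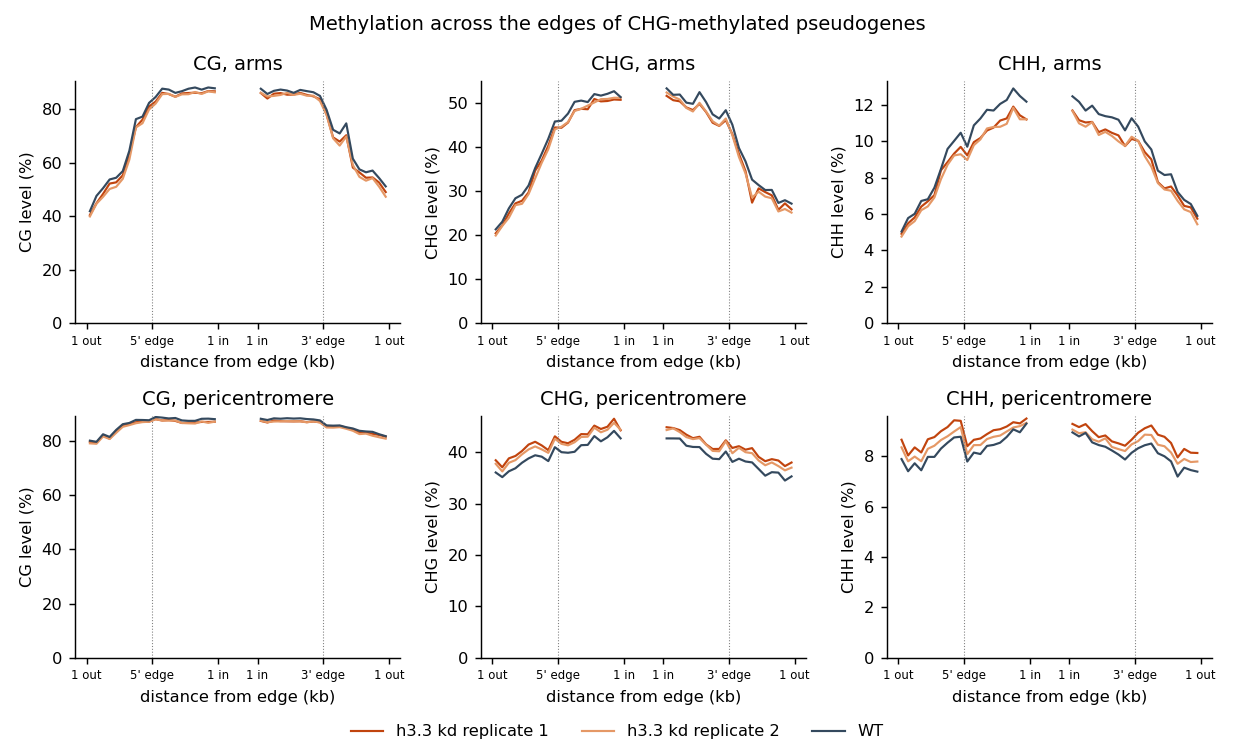
Pooled CG, CHG and CHH level (%) in 100-bp bins from 1 kb outside to 1 kb inside the 5′ and 3′ edges of CHG-methylated pseudogenes, in arms (upper row) and in the pericentromere (lower row). Lines are h3.3 kd replicate 1, h3.3 kd replicate 2 and WT, and dotted lines mark the edges. In all 40 bins the h3.3 kd CHG lines run below WT in the arms and above WT in the pericentromere, while outside the edges CG drops steeply in the arms (WT between 41.9% and 82.5%) and little in the pericentromere (79.6% to 87.7%).

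The pseudogenes under 5% CHG had less CG methylation inside than outside their edges. Their bodies had 8.92% and 8.49% CG in h3.3 kd against 9.31% in WT from 200 bp to 1 kb inside the edges, whereas their flanks had 17.4% and 17.4% in h3.3 kd against 19.4% in WT. The median pseudogene of this class had 2.06% and 2.19% CG in h3.3 kd and 2.44% in WT, below the pooled level. Of the 277, 104 were lower in both h3.3 kd libraries, 84 were higher in both and 89 were mixed, where 3 alike libraries would give a share near 0.333 to each. Among protein-coding genes under 5% CHG, 51.4% were lower in CG in both h3.3 kd libraries, against 37.5% of these pseudogenes. The protein-coding median was 3.299% and 3.02% in h3.3 kd against 3.79% in WT.

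Few pseudogenes moved by a large amount. Each pseudogene was tested among all annotated genes with Fisher's exact test on its C and T calls, for each h3.3 kd library against WT, and was called when the Benjamini-Hochberg adjusted p was under 0.01 in both with a difference of the same sign of at least 10 points (5 for CHH). Such a test compares these libraries, not the genotypes, and its p-values do not hold the spread between plants. In CG, 14 pseudogenes (0.376%) fell, against 1.57% of all annotated genes, and 17 (0.456%) rose, against 0.435% of all annotated genes. In CHG, 16 of 3691 fell (0.433%, against 0.264%) and 4 rose (0.108%, against 0.0744%). A fall of 10 points needs a WT level of at least 10%. A CHG level of at least 20% was found for 89.6% of pseudogenes and 3.65% of protein-coding genes. The CHG shares of falls therefore do not compare like with like, and the share among genes of comparable CHG level was not counted. In CHH, 3 fell (0.0805%, against 0.0668%) and 1 rose (0.0268%, against 0.0107%). In all, 45 pseudogenes were called in some context (1.21%), where CG falls alone took 1.57% of all annotated genes. The share of all annotated genes was not counted for calls in any context or for the limma counts that follow. For each gene, limma had 1 residual degree of freedom, from its h3.3 kd pair. It set this beside a prior shared over all genes tested, of 2.58 degrees of freedom in CG, 6.29 in CHG and 1090 in CHH. The error was thus mostly a shared value, and in CHH almost wholly so. With limma, which takes its error from the h3.3 kd pair, no pseudogene passed an adjusted p of 0.05 with 10 points in CG, where 18 fell and 18 rose at an unadjusted p under 0.05, and 12 fell and 3 rose in CHG, and 8 fell and 2 rose in CHH.

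Most pseudogenes called in CG were short, and many lay near genes. Of the 14 that fell in CG, 10 lay on arms, which hold 23.8% of all pseudogenes, and 11 were under 2 kb (47.9% of all). Within 1 kb of a protein-coding gene lay 9 of them, against 19.9% of all pseudogenes and 47.3% of those on arms. Nearness to genes and place on arms were not told apart. Of the 17 that rose, 9 lay on arms, 16 were under 2 kb and 8 lay within 1 kb of a protein-coding gene. On the arms, 1.13% of pseudogenes fell and 1.02% rose in CG, against 0.141% and 0.282% in the pericentromere. Of the pseudogenes under 20% CHG, 2.06% fell and 2.57% rose in CG, against 0.180% and 0.210% of CHG-methylated ones. CHG-methylated pseudogenes, 94.6% of those in the pericentromere, already had high CG levels in WT. A rise of 10 points had little room there, so the shares of rises are limited by the rule for a call. All 4 pseudogenes that rose in CHG also rose in CG, 4 of the 16 that fell in CHG also fell in CG, and none was called in opposite directions in these contexts.

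**Figure D4:**
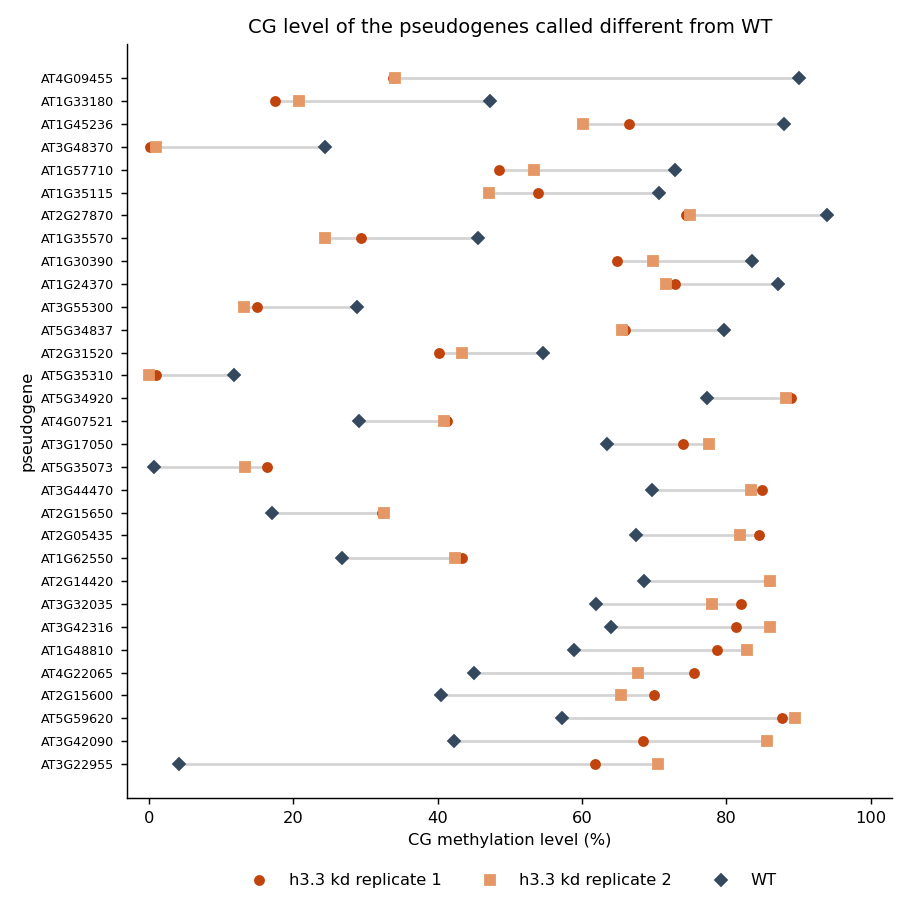
CG methylation level (%) of the 31 pseudogenes called in CG, in h3.3 kd replicate 1 (circles), h3.3 kd replicate 2 (squares) and WT (diamonds), ordered by the mean difference from WT, with the 14 that fell at the top and the 17 that rose below. By the rule for a call, both h3.3 kd libraries lie on the same side of WT in each row. The rows run from AT4G09455 (33.9% and 34.0% against 90.1%) to AT3G22955 (61.8% and 70.5% against 4.14%).

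AT4G09455 (chr4:5987419-5991819, + strand, on the arm) fell in all 3 contexts. Its CG level was 33.9% and 34.0% in h3.3 kd against 90.1% in WT (599, 523 and 533 calls), its CHG level was 13.7% and 13.0% against 49.1%, and its CHH level was 7.20% and 6.07% against 16.1% (Fisher's exact test in CG, adjusted p = 2.67e-87 and 6.73e-82, and limma adjusted p = 0.0897). The h3.3 kd libraries differed by far less than their distance from WT. The loss lay at its 5′ side. The first 500 bp had 2.30% and 1.11% CG in h3.3 kd against 93.5% in WT, the next 500 bp had 13.8% and 7.73% against 90.7%, and from 1000 to 1500 bp the level was 74.0% and 82.7% against 88.7%. In the 500 bp upstream, CG was 0 in both h3.3 kd libraries (0 of 100 and 0 of 126 calls, which allows up to 3.0% and 2.38%) and 6.54% in WT, and CHG was 2.0% and 0.621% against 25.3%. Most of this pseudogene is repeated sequence (84.4%), and from 3500 bp to its end no tile had CG calls in every library.

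AT2G27870 (chr2:11867251-11868195, - strand, on the arm) fell in CG and CHG, and again over part of its length. Its CG level was 74.4% and 74.9% in h3.3 kd against 93.9% in WT, and its CHG level was 32.3% and 35.6% against 65.0% (Fisher's exact test in CHG, adjusted p = 1.46e-36 and 1.06e-28, limma adjusted p = 0.00287). The 500 bp at its left edge had 90.1% and 88.0% CG in h3.3 kd against 94.1% in WT, whereas the next tile, which reaches its 5′ edge, had 57.3% and 58.1% against 91.2%. In that tile CHG was 22.1% and 25.3% against 62.5%.

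The other CG losses that ranked highest were in pseudogenes under 1 kb, and all but AT1G57710 had CHG levels under 2% in every library. AT1G33180 (308 bp, 46 bp from a protein-coding gene) had 17.4% and 20.9% CG in h3.3 kd against 47.3% in WT. AT3G48370 (745 bp) had 0.194% and 1.06% in h3.3 kd against 24.4% in WT, and its CHG level was under 1% in every library. AT1G45236 (72 bp), which overlaps a protein-coding gene, had 66.5% and 60.2% against 87.9%, on 158, 128 and 116 calls. AT1G57710 (71 bp) had 48.5% and 53.3% against 72.9%, on at most 225 calls in any library. The limma adjusted p of these 4 lay between 0.0897 and 0.161. All 4 lay on arms. That both h3.3 kd libraries were below WT in each follows from the rule for a call.

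AT3G22955 (chr3:8138497-8138965, + strand, 469 bp, on the arm) was nearly unmethylated in WT and rose in CG and CHG. It had 61.8% and 70.5% CG in h3.3 kd against 4.14% in WT (401, 407 and 435 calls), 31.0% and 36.9% CHG against 0.259%, and 3.75% and 4.82% CHH against 0.218% (Fisher's exact test in CG, adjusted p = 2.21e-77 and 7.36e-98, limma adjusted p = 0.0897). CG and CHG were far lower beside the pseudogene than in it. The 500 bp to its left had 6.36% and 2.0% CG in h3.3 kd against 1.60% in WT, and CHH there was 2.59% and 1.92% in h3.3 kd against 0.753% in WT, above WT in both libraries. The CG level of the tile to its right was 0.526% and 1.10% against 1.41%.

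AT5G59620 (chr5:24018936-24020605, - strand, 1670 bp, on the arm) differed in CG most at its 3′ end. Its CG level was 87.7% and 89.5% in h3.3 kd against 57.2% in WT, and its CHG level was 31.8% and 30.8% against 18.6%. The leftmost 500 bp had 86% and 90% CG in h3.3 kd against 8.11% in WT, while the next tile had 89.0% and 85.6% against 81.1%. The h3.3 kd libraries parted outside the edge, where the 500 bp to the left had 81.8% CG in replicate 1 and 3.40% in replicate 2, against 1.25% in WT.

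**Figure D5:**
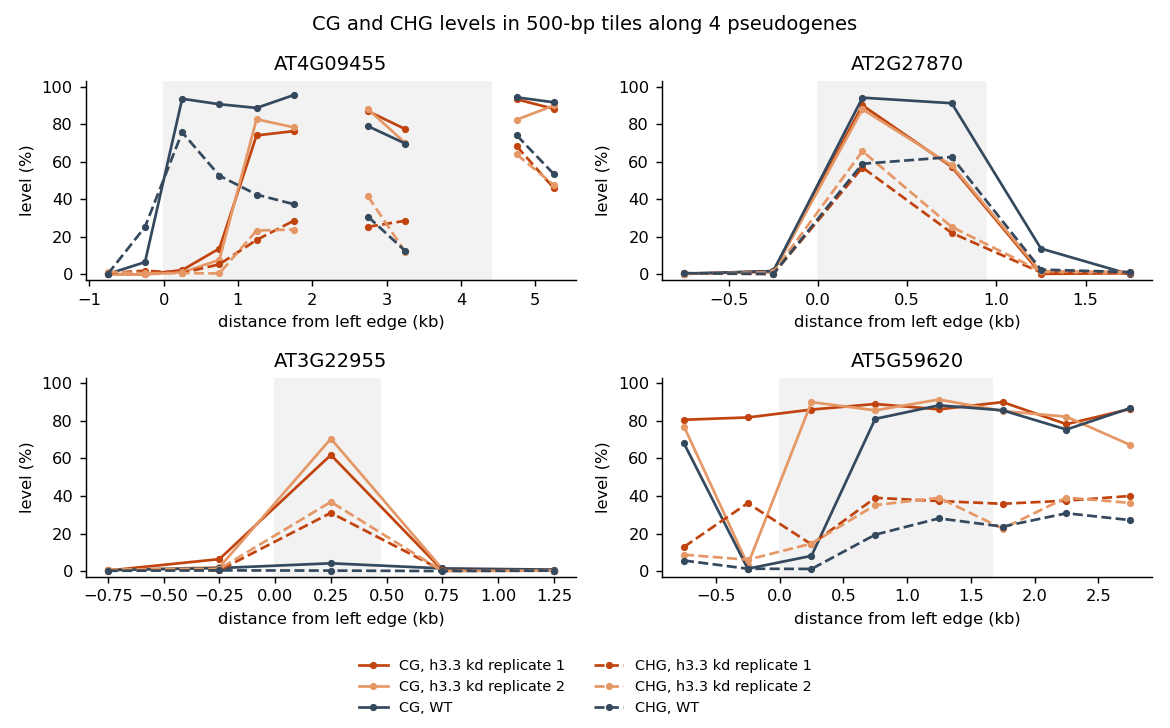
CG (solid) and CHG (dashed) level (%) in tiles of 500 bp along AT4G09455, AT2G27870, AT3G22955 and AT5G59620, against distance from the left edge (kb), for h3.3 kd replicate 1, h3.3 kd replicate 2 and WT. Grey marks the pseudogene, and tiles with fewer than 15 calls in any library are left out. In AT4G09455 the h3.3 kd lines lie near 0 over the first tile (2.30% and 1.11% CG against 93.5% in WT) and, in CG, closer to WT farther right.

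The other CG gains that ranked highest had intermediate levels in WT. AT3G42090 (478 bp, in the pericentromere) had 68.5% and 85.6% CG in h3.3 kd against 42.2% in WT and rose in CHG too, at 30.6% and 37.7% against 11.1%, with the h3.3 kd libraries well apart. AT2G15600 (273 bp) had 70.0% and 65.4% CG in h3.3 kd against 40.5% in WT. AT4G22065 (414 bp) had 75.5% and 67.8% against 45.0%, with CHG at 1.35% and 0.791% in h3.3 kd and 2.40% in WT. AT1G48810 (991 bp) had 78.7% and 82.9% against 58.9%. AT3G42316 (1526 bp, in the pericentromere), the remaining CHG gain, had 22.2% and 23.8% CHG in h3.3 kd against 7.40% in WT and 81.3% and 86.1% CG against 64.1% (limma adjusted p = 0.00646 in CHG).

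Among the CHG losses that ranked highest, some had no CG call. AT5G33360 (528 bp, in the pericentromere) had 24.5% and 30.1% CHG in h3.3 kd against 56.0% in WT, on 147, 133 and 125 calls, and 91.7% and 93.0% CG against 94.8%. AT3G52705 (319 bp), which overlaps a protein-coding gene, had 13.7% and 7.66% CHG in h3.3 kd against 32.0% in WT, and fell in CHH at 1.27% and 1.55% against 6.80%, while CG, at 52.6% and 28.2% against 63.4%, was not called because replicate 1 did not pass (adjusted p = 0.0581 by Fisher's exact test). AT1G35115 (3298 bp), chosen after its values were seen, had 1.22% and 1.61% CHG in h3.3 kd against 19.1% in WT and also fell in CG, at 53.95% and 47.1% against 70.7%. In CHH, AT3G60565 (5985 bp, 93.8% of it repeated sequence) had 11.3% and 11.003% in h3.3 kd against 16.6% in WT, on 1572, 1536 and 1520 calls. The single CHH rise was AT4G08956 (660 bp, in the pericentromere), with 47.6% and 46.2% against 40.6%, on a CHG level of 74.1% and 72.6% against 66.0%.

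Most of the 16 Sadhu elements, which the annotation describes as non-coding retrotransposons, were either densely methylated or nearly free of methylation. In WT 7 had a CG level of at least 90% and 7 one under 1%, and 2 lay between. The 7 low elements lay between 0.299 and 0.840% in h3.3 kd replicate 1, between 0.439 and 0.824% in replicate 2, and between 0.182 and 0.839% in WT, so that no element left this class. The 7 high ones lay between 88.7 and 94.96% and between 89.0 and 96.3% in h3.3 kd, and between 90.6 and 97.5% in WT. Their median CHG level was 37.0% and 39.0% in h3.3 kd and 42.1% in WT. SADHU9-1 (AT1G44935), chosen after its values were seen, was the only element called, with 31.9% and 28.2% CHG in h3.3 kd against 42.1% in WT. It was also the element at the WT median, whereas the median of replicate 2 was that of SADHU3-2 (AT3G42658). The medians therefore do not show a change shared by the 7 high elements. SADHU1-2 (AT1G30835), the longest at 1972 bp, had 0.394% and 0.439% CG in h3.3 kd and 0.374% in WT.

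The 6 MUG genes had CG methylation with little in the other contexts. Their CG level ran from 39.3 to 66.9% in h3.3 kd replicate 1, from 39.5 to 63.2% in replicate 2 and from 41.6 to 70.7% in WT, with CHG under 1% throughout. MUG8 (AT5G34853) had 66.9% and 63.2% CG in h3.3 kd against 70.7% in WT, MUG1 (AT3G04605) had 44.4% and 45.8% against 47.5%, and MUG5 (AT3G06940) had 42.7% and 40.6% against 41.6%. None of the 6 was called, 4 were lower than WT in both h3.3 kd libraries, and MUG5 was among the 2 that were mixed.

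None of the longest pseudogenes with a family name was called. RE2 had 71.1% and 72.7% CG in h3.3 kd and 74.0% in WT over its 4437 bp, and 27.7% and 29.3% CHG against 27.2%. Its methylation was uneven in every library, since its first 2500 bp from the left edge stood between 86.4% and 93.7% in single tiles of 500 bp, whereas the tile from 4000 to 4500 bp, which is its 5′ end on the - strand and holds most of the stretch printed above, had 0.627% and 0.129% in h3.3 kd and 0.775% in WT. AT5G28065 (CACTA-like) had 89.5% and 89.0% CG in h3.3 kd and 90.2% in WT. AT2G10900 (similar to a non-LTR retroelement) had 41.4% and 41.8% CHG against 37.8%, and AT2G11120 (similar to Athila) had 42.8% and 38.4% against 37.6%. AT5G43015 (mutator-like, on the arm, 84.4% of it repeated sequence) had 47.6% and 45.4% CHG in h3.3 kd against 52.5% in WT. CYTOSLEEPER (AT1G15300), a gene derived from a hAT transposase, was almost free of CG methylation, at 2.91% and 1.11% in h3.3 kd and 0.330% in WT. MEE19 (AT2G34130, 64.1% of it repeated sequence) had 58.4% and 58.3% CHG against 63.1%. The longest pseudogene of all, AT5G28263 (15195 bp, 83.2% of it repeated sequence, with no family given), had 88.9% and 89.1% CG in h3.3 kd and 90.3% in WT. None of these 8 was called in any context.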

How the data were processed

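Mature leaves gave 2 h3.3 kd libraries and 1 WT library of bisulfite-treated whole-genome DNA, in which methylated cytosines read as C. Per the labels and the study's methods, the authors collapsed identical reads, mapped them to TAIR10 with BS Seeker (version not given in the sources used here) and deposited counts of C reads and of T reads at every cytosine, without normalisation or pooling. Bisulfite conversion was not measured here, and a base that failed to convert reads as methylated. Between 1.23 and 1.25% of cytosines stood on several lines, which were summed.

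Calls were summed over each pseudogene of the RefSeq TAIR10.1 annotation and context (Python 3.11.15, pandas 2.3.3, numpy 2.4.6, scipy 1.17.1, numba 0.67.0). Levels are C over C plus T, with Wilson intervals of 95%. Repeated sequence was found as stretches of 50 bp that occur more than once on either strand. Each h3.3 kd library was set against WT by two-sided Fisher's exact tests over all annotated genes with at least 100 calls, with Benjamini-Hochberg adjustment. limma 3.58.1, run on the log2 of C over T counts with 0.5 added to both, was the alternative. On simulated calls for 36290 genes in CG, with 200 changed by 20 points, Fisher's test recovered 97.5% and limma 64.0%, with 0 false calls each. The changed genes all had intermediate CG levels, calls were drawn independently and the spread between libraries was assumed. These rates therefore do not give the error of the calls made here. The genotypes were compared over libraries by exact permutation. Other minimums, weightings, pericentromere limits and left-out libraries were tried as alternatives. Pseudogenes named in the text were the 6 largest falls and rises in CG, 4 in CHG and 3 in CHH, ranked by the smaller of the 2 library differences, the longest of each annotated transposon family, and the 6 longest with a symbol. The pseudogenes and lists were chosen with earlier results of these data known. Figures were drawn with matplotlib 3.10.9.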

Additional observations from a re-analysis of the deposited data

How the results depend on the processing

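No paired analysis was possible because the labels give WT a single library and no replicate number that it shares with h3.3 kd. Of 130 values under an alternative, over 22 results, 89 stayed within the spread of the h3.3 kd pair (counts, within 1.5 times) and 41 moved. For level differences, leaving out 1 h3.3 kd library could not count as a move. It shifts the mean by less than the SD of the pair, whatever the data, so those values say nothing on stability. The pooled CHH difference over all pseudogenes, -0.01 points and smaller than that spread, changed sign as a mean over sites (0.067 points), as a mean over pseudogenes (0.033), weighted by WT calls (0.065), with overlapping pseudogenes left out (0.0040) and without replicate 2 (0.092, against -0.117 without replicate 1), so that it has no settled direction. No other difference changed sign. The weightings by WT calls, the arm and pericentromere alternatives in CHG and CHH, those by site or by pseudogene within arms and pericentromere, those for CHG-methylated pseudogenes and the left-out libraries for levels in these places and flanks were chosen after seeing the data.

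A difference of at least 20 points left 4 CG falls, 5 CG rises, 3 CHG falls and 1 CHG rise, and one of at least 10 points left 0 CHH falls and 0 rises. limma gave 0 CG falls and 0 CG rises (18 and 18 at an unadjusted p under 0.05), 8 CHH falls and 2 CHH rises. With 1 h3.3 kd library left out, there were 29 to 32 CG falls, 25 to 29 CHG falls, 16 to 23 CHG rises, 9 CHH falls and, without replicate 1, 3 CHH rises, since 1 comparison then had to pass in place of 2. None of these counts of falls and rises was set against its share of all annotated genes. As means over sites, over pseudogenes and weighted by WT calls, the CG difference was -0.996, -0.90 and -0.98 points and the CHG difference 1.02, 1.17 and 1.14 points. By sites and by pseudogenes, CG was -0.97 and -0.86 points in the pericentromere and -1.10 and -1.02 in the arms, CHG in the arms was -0.90 and -0.89, and CHH in the arms was -0.64 and -0.71. By pseudogenes, CG of CHG-methylated pseudogenes was -0.89 points in the pericentromere and -1.13 in the arms. With the pericentromere narrowed to a protein-coding share under 0.25, CHG there was 1.91 points, and the arms had -2.91 in CG, -1.28 in CHG and -0.62 in CHH. With a share under 0.45, CHG in the arms was -2.22. With annotated genes left out, CG in the flanks was -0.85 points. WT had 1 library, so that the spread between WT plants is unknown.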
